A study of Mus musculus with 12 samples.

Results

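The 10 genes described here are known to be switched on by p53 during growth arrest and stress, and were measured in heads of Eftud2 mutant mouse embryos. The members are Cdkn1a, Btg2, Plk2, Gtse1, Sesn1, Sesn2, Trp53inp1, Zmat3, Ptprv and Ddit4l. They were picked by name, as established p53 targets, with earlier results of these data known. All 10 were among the 24421 gene symbols of the deposited count table, and all 10 were among the 14810 genes with enough counts to be tested.

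The RNA came from C57Bl/6 mouse embryos in which Eftud2, which encodes a GTPase of the U5 spliceosomal particle, was altered in neural crest cells. The 12 libraries formed 4 groups of 3, namely heterozygous controls (Eftud2+/-) and homozygous mutants (Eftud2-/-), each at the embryonic stages E9.0 and E9.5 (days after conception), and no embryo received a treatment. The controls thus also carry an altered Eftud2 allele, and no wild-type group was analysed here. The title of the series names Mdm2 splicing, p53 activity and craniofacial defects as its subject. The driver that restricts the mutation to the crest is not named in the labels. The labels give the source as neural crest cells and the tissue as cranial nerve ganglia, whereas the protocol describes stored heads. They do not say whether replicates were separate embryos or pools, so the p-values measure the spread between these samples, which may be technical.

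p53 is a transcription factor that is normally held at a low level by Mdm2, a ubiquitin ligase that it also induces, and that accumulates when a cell is damaged or when ribosome or spliceosome assembly is disturbed. Its targets slow the cell cycle, change metabolism or kill the cell. Neural crest cells are known to be sensitive to p53, and several craniofacial syndromes of ribosome and spliceosome genes involve it. The members belong to the first kinds of response. Cdkn1a, Btg2, Ptprv, Plk2 and Gtse1 act on the cell cycle, Sesn1, Sesn2 and Ddit4l on the nutrient-sensing kinase complex mTORC1, and Trp53inp1 and Zmat3 on p53 itself, autophagy and RNA.

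Libraries held 13914543 to 31172708 counts, with 13914543 to 16590999 in the homozygous E9.0 group. Eftud2 was at 275 to 302 CPM (counts scaled to a common library size with TMM factors) in heterozygous and at 232 to 236 CPM in homozygous E9.0 libraries, and at 248 to 264 and 221 to 226 CPM at E9.5. Its E9.0 log2 fold change was −0.29 ± 0.05 (SE, edgeR adjusted p 0.0193). It was thus lower in mutants but present in every library. Of the lists of cell type markers, every gene of the crest (9), ganglion neuron (10), neural tube (7) and endothelial (8) lists had counts in every group, so transcripts of cell types other than neural crest were present. Hba-a1, of the erythroid list, had no count in 3 of the 4 groups. Heterozygous E9.0 replicate 1 stood apart, because Rn45s, a ribosomal RNA precursor, took 37.4% of its counts against 4.40% to 16.2% in the other 11 libraries. The Rn45s share also went with stage, at 6.05% to 37.4% in E9.0 and 4.40% to 5.90% in E9.5 libraries. E9.5 libraries held 24165537 to 31172708 counts, more than any homozygous E9.0 library.

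RefSeq promoter windows (GRCm38.p6, 250 bases before to 50 bases after a transcript start) were held for 7 of the members, in 10 windows; Trp53inp1, Zmat3 and Ptprv had none in the table. They were searched for the p53 half-site, and for pairs of half-sites 0 to 13 bases apart with at most 2 mismatches in all and intact cores, called full sites here. Half-sites without a mismatch lay in windows of 4 members (Cdkn1a, Gtse1, Sesn1 and Ddit4l) and full sites in windows of 3 (Cdkn1a, Gtse1 and Sesn1). Of all 32544 different windows of this length, 8.36% held a half-site and 2.14% a full site. The 4 windows shown were picked because they set Cdkn1a and Gtse1, which were raised in mutants, beside the sestrin pair, of which the member with a match was not called and the member without one was. Sequences run 5′ to 3′ on the strand of the gene, and capitals mark full sites.
Cdkn1a, chr17:29090729-29091028, plus strand: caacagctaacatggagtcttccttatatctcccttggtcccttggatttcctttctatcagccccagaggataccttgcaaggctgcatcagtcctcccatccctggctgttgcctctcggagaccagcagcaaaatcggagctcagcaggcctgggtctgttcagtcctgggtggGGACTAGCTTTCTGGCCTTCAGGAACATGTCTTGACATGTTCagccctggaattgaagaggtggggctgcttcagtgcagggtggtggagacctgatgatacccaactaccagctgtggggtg
Gtse1, chr15:85859696-85859995, plus strand: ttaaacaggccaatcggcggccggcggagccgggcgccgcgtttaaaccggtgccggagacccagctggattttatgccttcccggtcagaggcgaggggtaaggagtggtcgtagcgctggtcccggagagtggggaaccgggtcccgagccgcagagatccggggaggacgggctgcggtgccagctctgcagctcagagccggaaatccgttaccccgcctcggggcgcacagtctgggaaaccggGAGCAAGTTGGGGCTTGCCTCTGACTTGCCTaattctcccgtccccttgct
Sesn1, chr10:41887189-41887488, plus strand: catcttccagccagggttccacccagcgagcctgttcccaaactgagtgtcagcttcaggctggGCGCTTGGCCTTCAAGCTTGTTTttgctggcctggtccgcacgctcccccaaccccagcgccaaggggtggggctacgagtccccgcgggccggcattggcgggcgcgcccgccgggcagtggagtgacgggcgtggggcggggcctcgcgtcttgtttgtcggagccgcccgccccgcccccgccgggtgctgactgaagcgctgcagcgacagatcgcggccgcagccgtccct
Sesn2, chr4:132510407-132510706, minus strand: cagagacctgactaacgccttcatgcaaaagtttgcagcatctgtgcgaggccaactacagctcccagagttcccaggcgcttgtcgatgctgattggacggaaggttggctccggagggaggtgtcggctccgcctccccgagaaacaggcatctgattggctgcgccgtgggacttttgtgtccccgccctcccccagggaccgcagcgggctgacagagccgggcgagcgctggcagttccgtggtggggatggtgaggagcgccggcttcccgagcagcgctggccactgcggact
In the Cdkn1a window shown, 2 overlapping full sites began 73 and 51 bases before the start of the upstream of its 2 promoters. The first had 0 mismatches and 12 bases between its half-sites, and the second had 1 mismatch and 0 bases between them. The Sesn1 site began 186 bases before the start of a downstream promoter and had 2 mismatches. The Gtse1 sites lay at the transcript start of the downstream of its 2 windows. Cdkn1a, Sesn1 and Gtse1 each had 2 windows, and the other window of each held no full site. No member window held TTTGAA (either strand; the core of the cell cycle homology region, in 17.8% of all windows) or TTGCATCA (either strand; a C/EBP-ATF composite element, in 0.867%). A match describes letters only, and its absence from these windows says nothing about binding elsewhere.

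At E9.0, 9 of the 10 genes were higher in homozygous than in heterozygous embryos and Sesn1 was not. In the same test 0.587% of all tested genes were called, 0.432% of them as higher (edgeR quasi-likelihood test, Benjamini-Hochberg adjusted p under 0.05). The rises ran from 1.41-fold for Zmat3 to 8.18-fold for Ptprv. The median log2 fold change of the 10 genes was 1.01, and that of all tested genes was −0.0043. The lowest homozygous library lay above the highest heterozygous one for the 9 called genes and the reverse held for Sesn1; of all genes, 17.3% did not overlap between genotypes, 9.07% as higher and 8.2% as lower. In bulk heads, more cells expressing a gene and more transcript per cell cannot be told apart.

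Cdkn1a (chr17:29090976-29100727 in GENCODE M21, GRCm38, plus strand) encodes p21, the inhibitor of cyclin-dependent kinases through which p53 arrests the cycle in G1. It was at 2.35, 2.84 and 3.57 CPM in heterozygous and at 18.8, 12.9 and 30.9 CPM in homozygous E9.0 libraries. All mutants lay well above all controls, and mutants themselves differed more from each other than controls did (coefficient of variation 44.09% against 21.02%). The rise was 6.94-fold, with a log2 fold change of 2.80 ± 0.29 (SE; 95% interval 2.17 to 3.42; edgeR adjusted p 3.7e-04). For the CPM values an exact permutation test (two-sided) gave p 0.1, the smallest possible for 3 libraries against 3. Without homozygous replicate 3, the highest library, the log2 fold change was 2.39, and without homozygous replicate 2, the lowest, it was 3.06. Of the exons of Cdkn1a, 7.7% overlap a gene on the opposite strand, AC167363.2, and as the strand setting of the counting is not given in the sources used here, its reads could be included.

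Ptprv (chr1:135108497-135132594, minus strand), annotated as a processed transcript in GENCODE M21, comes from a receptor tyrosine phosphatase gene known as a p53 target in mouse cells that exit the cycle. It had the lowest level of the group, at 0.440, 0.375 and 0.172 CPM (6, 7 and 4 counts) in heterozygous and 2.63, 1.20 and 3.99 CPM (35, 21 and 59 counts) in homozygous E9.0 libraries. The groups did not overlap, and the order of the mutant libraries was that of Cdkn1a. The log2 fold change was 3.03 ± 0.49 (95% interval 1.99 to 4.07; edgeR adjusted p 0.00618), a wide interval on few counts. Its exons share 345 bp (4.9%) with Gm10535 on the opposite strand.

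Btg2 (chr1:134075170-134079120, minus strand) is an antiproliferative protein that recruits the machinery of messenger RNA deadenylation. It was at 10.8, 12.7 and 13.3 CPM in heterozygous and at 18.8, 18.04 and 18.7 CPM in homozygous E9.0 libraries. The mutants were tightly grouped above the controls. The rise was 1.497-fold (log2 fold change 0.58 ± 0.09, edgeR adjusted p 0.00588).

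Plk2 (chr13:110395046-110400844, plus strand), a polo-like kinase of centriole duplication and stress checkpoints, was at 39.4, 40.9 and 37.2 CPM in heterozygous and 69.5, 64.9 and 81.0 CPM in homozygous E9.0 libraries. The 2 groups were separated by more than the range within either. The rise was 1.83-fold (0.87 ± 0.11, edgeR adjusted p 5.8e-04).

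Gtse1 (chr15:85859745-85876573, plus strand) is a microtubule-binding protein made in late cell cycle phases that can move p53 out of the nucleus. It was at 50.4, 47.8 and 47.9 CPM in heterozygous and 76.2, 64.9 and 84.2 CPM in homozygous E9.0 libraries, again without overlap. The rise was 1.54-fold (0.62 ± 0.08, edgeR adjusted p 7.7e-04). Other genes of G2 and mitosis were not called at E9.0 (0 of 19 by edgeR, DESeq2 or limma-voom; 1 of 19 at an unadjusted p under 0.05), with a median log2 fold change of −0.06. Those with the smallest adjusted p were Bub1 (−0.21, edgeR adjusted p 0.294), Mki67 (−0.23, 0.378), Foxm1 (−0.14, 0.458) and Cenpf (−0.15, 0.461).

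The sestrins divided. They are leucine-responsive proteins that restrain mTORC1 through the GATOR complexes and limit oxidative damage. Sesn2 (chr4:132492032-132510501, minus strand) was at 17.5, 16.0 and 18.6 CPM in heterozygous and at 33.9, 32.4 and 49.4 CPM in homozygous E9.0 libraries. All mutants were above all controls, and mutant replicate 3 was highest. The rise was 2.22-fold (log2 fold change 1.147 ± 0.13, edgeR adjusted p 2.2e-04), and it was 0.93 on the log2 scale without that library.

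Sesn1 (chr10:41809935-41908424, plus strand), the other p53-linked sestrin, was at 15.2, 16.7 and 15.1 CPM in heterozygous and at 14.7, 13.7 and 13.8 CPM in homozygous E9.0 libraries. The mutants lay slightly below the controls, without overlap. The log2 difference of −0.16 ± 0.09 (95% interval −0.34 to 0.03) missed the threshold (edgeR adjusted p 0.445), and its sign turned, to 0.03, when libraries were scaled by total counts only. Sesn3, the third sestrin, had −0.12 ± 0.08 (edgeR adjusted p 0.518). The ratio of Sesn2 to Sesn1 counts, which needs no scaling between libraries, was 1.16, 0.958 and 1.23 in heterozygous and 2.30, 2.36 and 3.59 in homozygous E9.0 libraries. Its mean was 2.47-fold higher in mutants (2.75 ± 0.726 against 1.11 ± 0.140, SD, n = 3 each; exact permutation p 0.1, the smallest possible).

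Ddit4l (chr3:137621612-137628333, plus strand), also called Redd2, is an inhibitor of mTORC1 signalling. It was at 2.86, 2.36 and 2.49 CPM in heterozygous and at 9.02, 8.25 and 11.6 CPM in homozygous E9.0 libraries. Every mutant library was more than double every control. The rise was 3.75-fold (log2 fold change 1.91 ± 0.16, edgeR adjusted p 9.2e-06), with the smallest adjusted p of the 10 genes. Its relative Ddit4 (Redd1) had a log2 fold change of 0.75 ± 0.17, which did not pass (edgeR adjusted p 0.0766).

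Trp53inp1 (chr4:11156431-11174379, plus strand) encodes a stress protein that binds kinases of p53 and takes part in autophagy. It was at 14.5, 22.2 and 23.8 CPM in heterozygous and at 54.1, 52.4 and 50.9 CPM in homozygous E9.0 libraries. Here the controls varied more than the mutants, replicate 1 being lowest, and the groups were far apart. The rise was 2.57-fold (1.36 ± 0.14, edgeR adjusted p 1.4e-04), and it was 1.19 on the log2 scale without heterozygous replicate 1.

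Zmat3 (chr3:32334792-32366014, minus strand) is a zinc finger protein that binds RNA and affects splicing and stability of transcripts. It was at 69.7, 73.6 and 72.7 CPM in heterozygous and at 110, 84.1 and 110 CPM in homozygous E9.0 libraries. Mutant replicate 2 lay nearer to the controls than the other mutants did. The rise was 1.41-fold (0.49 ± 0.09, edgeR adjusted p 0.0193). It was the least stable of the 9 calls and was kept in 1 of 6 fits that left out an E9.0 library (that without homozygous replicate 2), with log2 fold changes of 0.43 to 0.61 and adjusted p up to 0.126.

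**Figure D1:**
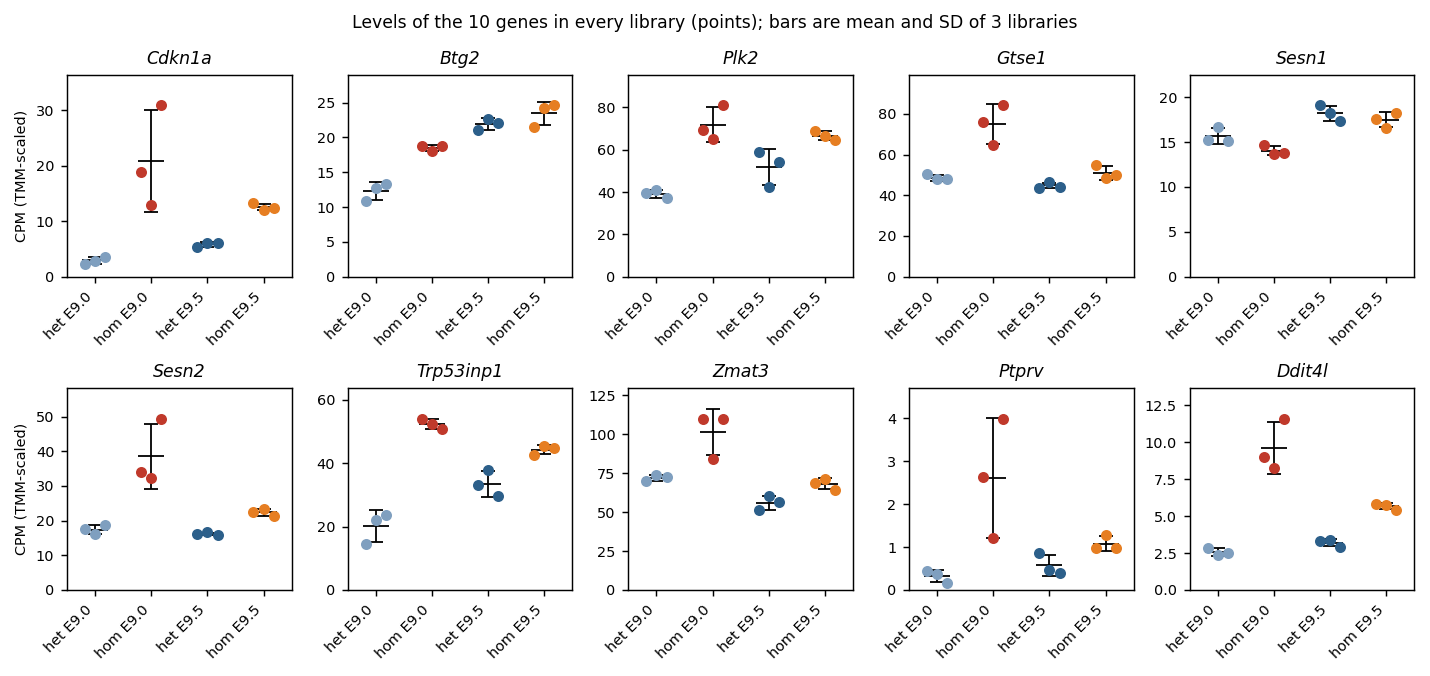
TMM-scaled CPM of each of the 10 genes (y axis, from 0, a separate scale per gene) in the 12 libraries, by genotype and stage (x axis; het is heterozygous, hom is homozygous). Points are libraries, and bars give the mean and SD of 3; at E9.0 mutants lie above controls for 9 genes, such as Cdkn1a at 12.9 to 30.9 against 2.35 to 3.57 CPM, and slightly below them for Sesn1.

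The order of the mutant E9.0 replicates was then compared over the 10 genes. Homozygous replicate 3 was the highest of the 3 for 7 of the 10 genes (Cdkn1a, Plk2, Gtse1, Sesn2, Zmat3, Ptprv and Ddit4l), and replicate 2 was the lowest for 9, all except Trp53inp1. Of all tested genes, 36.2% were highest in replicate 3 and 34% lowest in replicate 2. The Rn45s share of these libraries was 13.2%, 6.05% and 16.2% for replicates 1 to 3, the order of their Cdkn1a levels. In the heterozygous E9.0 libraries it was 37.4%, 15.1% and 12.5% and Cdkn1a ran in the opposite order. The part of ribosomal RNA content in this spread was not tested. Without heterozygous replicate 1, whose Rn45s share was highest, 8 of the 10 genes were called, all but Sesn1 and Zmat3. That fit called 62 of 15068 tested genes. With library sizes computed without Rn45s 9 of the 10 were called, and 105 of 14810 tested genes, against 87 in the main fit.

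Some marker sums also differed between genotypes at E9.0 without overlap, and those of the other lists overlapped. The 9 migrating crest markers summed to 445 to 474 CPM in heterozygous and 382 to 408 CPM in homozygous libraries, with 1 of 9 called as lower (0.155% of all genes were). The 8 endothelial markers summed to 259 to 277 and 308 to 315 CPM, and the 7 of surface ectoderm to 318 to 376 and 400 to 424 CPM, with no gene of either list called by edgeR, DESeq2 or limma-voom (3 of 8 and 6 of 7 at an unadjusted p under 0.05, as were 13.3% of all genes). Of the facial mesenchyme, ganglion, neural tube, erythroid and heart lists edgeR and limma-voom called 0 genes and DESeq2 1, of facial mesenchyme, with 1 of 9, 5 of 10, 0 of 7, 0 of 7 and 2 of 8 at an unadjusted p under 0.05. The sums of these lists overlapped between genotypes, for example at 134 to 156 CPM in heterozygous and 122 to 137 CPM in homozygous libraries for facial mesenchyme. For ganglion neurons they were 71.05 to 75.3 and 68.02 to 73.14 CPM. The part of cell composition in the rises of the p53 targets was not tested.

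Per kilobase of merged exons, the scale on which genes can be compared, Gtse1 was the most abundant of the 10 in heterozygous E9.0 libraries (17.8 ± 0.540 CPM per kb, SD, n = 3). Plk2 followed at 8.72 ± 0.412, and Zmat3 at 6.30 ± 0.178. Cdkn1a, at 0.822 ± 0.173, and Ddit4l, at 0.882 ± 0.0893, were low and close to each other, and Ptprv was lowest at 0.0471 ± 0.0200. In homozygous E9.0 libraries Cdkn1a reached 5.88 ± 2.59 CPM per kb, within its spread of Btg2 at 6.75 ± 0.150. The 3 genes with the largest fold rises, Ptprv, Cdkn1a and Ddit4l, were thus the 3 with the lowest control levels.

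At E9.5 the fold changes of the 10 genes between genotypes were smaller in size, although edgeR called 0 of their stage differences (given below). By edgeR, Cdkn1a and Ddit4l were called as higher in homozygous embryos and the other 8 were not. In this comparison edgeR called 1.89% of all tested genes, 1.19% as higher. DESeq2 called 4 of the 10 and 449 of 14810 genes. The median log2 fold change of the 10 genes was 0.38, and that of all tested genes −0.0026. Without regard to multiple testing, 8 of the 10 had a p under 0.05, all as higher, against 13.4% of all genes in either direction and 8.09% as higher. Libraries of the genotypes did not overlap for 8 of the 10, each higher in mutants, where 20.9% of all genes did not overlap and 11.4% as higher.

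Cdkn1a was at 5.34, 6.16 and 6.00 CPM in heterozygous and at 13.2, 12.1 and 12.4 CPM in homozygous E9.5 libraries. The mutants were close to each other, in contrast to E9.0. The rise was 2.16-fold (log2 fold change 1.11 ± 0.24, edgeR adjusted p 0.0401), and the call was lost in each of 6 fits that left out an E9.5 library, with log2 fold changes of 1.049 to 1.154 and adjusted p up to 0.133.

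Ddit4l was at 3.29, 3.35 and 2.91 CPM in heterozygous and at 5.83, 5.77 and 5.44 CPM in homozygous E9.5 libraries. The groups were clearly apart. It rose 1.78-fold (0.83 ± 0.14, edgeR adjusted p 0.00637) and kept its call in all 6 such fits.

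Among the genes that did not pass at E9.5, Sesn2 was at 16.0, 16.6 and 15.9 CPM in heterozygous and 22.5, 23.4 and 21.4 CPM in homozygous libraries, with a log2 difference of 0.48 ± 0.12 (edgeR adjusted p 0.0686). Plk2 was at 59.0, 42.3 and 54.3 CPM in heterozygous and 68.9, 66.4 and 64.5 CPM in homozygous libraries (0.36 ± 0.10, edgeR adjusted p 0.0954), and it was called without heterozygous replicate 1, its highest control (0.47), with 0.24 without heterozygous replicate 2, its lowest. Trp53inp1 was at 33.0, 37.9 and 29.7 CPM against 42.7, 45.4 and 44.8 CPM in mutants (0.40 ± 0.12, edgeR adjusted p 0.144). In these 3 genes every mutant library was above every control.

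Zmat3 was at 51.1 to 60.1 CPM in heterozygous and 64.5 to 71.5 CPM in homozygous E9.5 libraries (0.29 ± 0.09, edgeR adjusted p 0.132). Gtse1 was at 43.8 to 46.4 and 48.3 to 54.9 CPM (0.19 ± 0.08, edgeR adjusted p 0.311). Ptprv was at 0.391 to 0.854 and 0.975 to 1.29 CPM (0.91 ± 0.41, edgeR adjusted p 0.342). These also did not overlap, whereas the groups did overlap for Btg2 and Sesn1.

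Btg2 was at 20.98 to 22.7 CPM in heterozygous and 21.5 to 24.6 CPM in homozygous E9.5 libraries, with a log2 difference of 0.10 ± 0.08 and a 95% interval of −0.08 to 0.28 (edgeR adjusted p 0.711). Sesn1 was at 17.4 to 19.1 and 16.6 to 18.3 CPM (−0.06 ± 0.08, 95% interval −0.23 to 0.10, edgeR adjusted p 0.835). The Sesn2 to Sesn1 count ratio was 1.29 ± 0.119 in mutants and 0.887 ± 0.0443 in controls, 1.45-fold apart (SD, n = 3 each; exact permutation p 0.1, the smallest possible).

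At E9.5 several marker lists had called genes. Endothelial markers summed to 168 to 236 CPM in heterozygous and 303 to 334 CPM in homozygous libraries, with 7 of 8 called as higher, and facial mesenchyme markers to 172 to 284 and 150 to 166 CPM, with 5 of 9 called as lower (0.702% of all genes were). Ganglion neuron markers summed to 167 to 192 and 141 to 147 CPM, with 2 of 10 called as lower. Migrating crest markers summed to 290.2 to 346 and 276 to 321 CPM, with 4 of 9 called as lower, and those of head mesoderm and heart muscle to 1663 to 2275 and 2031 to 2727 CPM, with 3 of 8 called as higher. Of the neural tube list 1 of 7 was called as lower and of the surface ectoderm list 1 of 7 as higher, and edgeR, DESeq2 and limma-voom called 0 of 7 erythroid markers (0 unadjusted). Their part in the E9.5 values of the p53 targets was not tested.

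**Figure D2:**
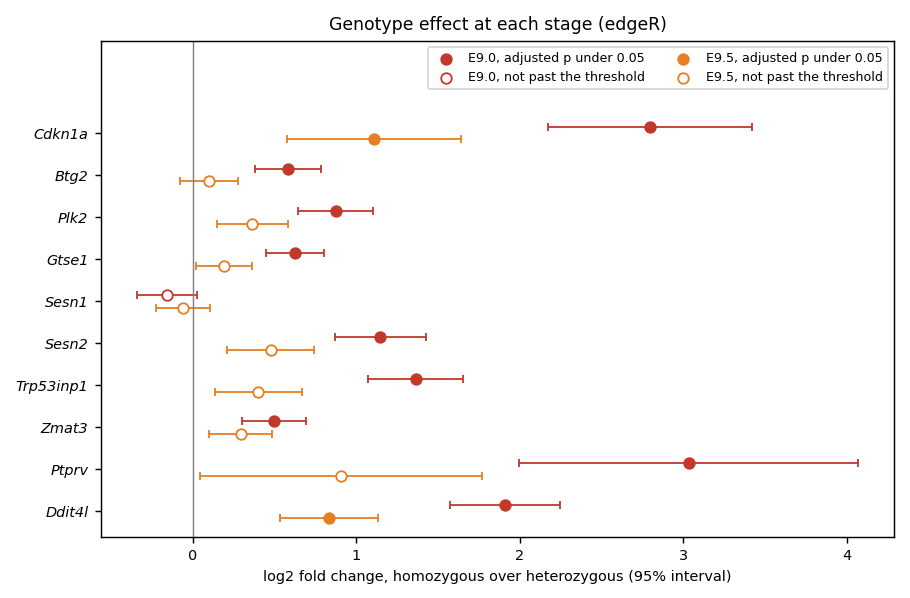
Log2 fold change of homozygous over heterozygous embryos (x axis) for the 10 genes (y axis) at E9.0 and E9.5, with 95% intervals from edgeR; filled points passed an adjusted p of 0.05. At E9.0 9 genes are filled, from 0.49 for Zmat3 to 3.03 for Ptprv, and at E9.5 Cdkn1a (1.11) and Ddit4l (0.83) are.

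The genotype effect was then compared between stages in 1 model, as the E9.5 effect minus the E9.0 effect. The difference was negative for 9 of the 10 genes and 0.10 for Sesn1, and no gene of the 10 passed the threshold, which 0.0675% of all tested genes did (edgeR). At an unadjusted p under 0.05, 8 of the 10 had a smaller effect at E9.5, all but Sesn1 and Zmat3, where 8.6% of all genes passed in either direction and 4.52% as lower. Of all 14810 tested genes DESeq2 called 74 and limma-voom 5. Of the 10 genes DESeq2 called 3 (Cdkn1a, Trp53inp1 and Ddit4l) and limma-voom called 0. In fits without 1 library edgeR called at most 1 of them, Trp53inp1 without heterozygous E9.0 replicate 1 or 3, Cdkn1a without homozygous E9.0 replicate 2 and Plk2 without heterozygous E9.5 replicate 2.

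The smallest adjusted p was that of Trp53inp1, with a difference of −0.96 ± 0.18, and of Ddit4l, with −1.08 ± 0.21 (edgeR adjusted p 0.116 for each). For Cdkn1a the difference was −1.69 ± 0.38 (95% interval −2.51 to −0.86, edgeR adjusted p 0.185), and for Ptprv −2.12 ± 0.66 (−3.53 to −0.72, edgeR adjusted p 0.348). Sesn2 had −0.67 ± 0.18 and Zmat3 −0.20 ± 0.13, the weakest of the negative values (edgeR adjusted p 0.250 and 0.701).

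The stage differences within each genotype show where the levels went. These comparisons share their libraries with the genotype comparisons, so they describe the same values from another side. Every E9.0 library had a higher Rn45s share than every E9.5 library. Stage and library composition can therefore not be told apart here, nor in the stage difference of the genotype effect. Between E9.0 and E9.5, 35.2% of all tested genes were called in heterozygous and 35.4% in homozygous embryos (edgeR), 19.2% and 19.6% as higher and 16% and 15.8% as lower, so calls are common here. In heterozygous embryos 5 of the 10 rose (Cdkn1a, Btg2, Plk2, Sesn1 and Trp53inp1) and Zmat3 fell. In homozygous embryos 2 rose (Btg2 and Sesn1) and 6 fell (Cdkn1a, Gtse1, Sesn2, Zmat3, Ptprv and Ddit4l). Total counts as the only scaling put the median of all genes at 0.38 in heterozygous and 0.18 in homozygous embryos (0.0082 and 0.015 with TMM). With it 7 of the 10 were called as higher and 0 as lower in heterozygous embryos, and 2 and 4 in homozygous ones. Of 14810 tested genes it called 6984 in heterozygous embryos, 6729 as higher, and 3326 in homozygous ones, 2897 as higher. Of all genes called between stages, 54.45% in heterozygous and 55.29% in homozygous embryos were higher at E9.5 with TMM factors, 96.35% and 87.1% with total counts, and 74.92% and 69.22% with total counts without Rn45s.

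Cdkn1a rose by 0.96 ± 0.30 in controls (edgeR adjusted p 0.0246) and fell by 0.73 ± 0.23 in mutants (edgeR adjusted p 0.0297), and each of these calls was kept in 2 of 6 fits without 1 library. The first was kept without heterozygous E9.0 replicate 3 or E9.5 replicate 1. The second was kept without homozygous E9.0 replicate 1 or 2, and the difference was −0.32 without homozygous E9.0 replicate 3. Its 4 groups ran from heterozygous E9.0 (2.92 ± 0.614 CPM) through heterozygous E9.5 (5.83 ± 0.439) and homozygous E9.5 (12.6 ± 0.572) to homozygous E9.0 (20.9 ± 9.20; SD, n = 3 each). The last 2 overlapped and the others did not. Trp53inp1 followed the same order, rising by 0.72 ± 0.13 in controls (edgeR adjusted p 8.4e-04), with a difference in mutants of −0.24 ± 0.13 that did not pass (edgeR adjusted p 0.150).

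Btg2 rose in both genotypes, by 0.83 ± 0.09 in controls (edgeR adjusted p 4.6e-06) and 0.34 ± 0.09 in mutants (edgeR adjusted p 0.00648). Its E9.5 controls, at 20.98 to 22.7 CPM, were above its E9.0 mutants, at 18.04 to 18.8 CPM. Plk2 rose in controls by 0.41 ± 0.11 (edgeR adjusted p 0.0078), and in mutants it had −0.11 ± 0.10 (edgeR adjusted p 0.452). In these genes the fold change between genotypes was smaller at E9.5 than at E9.0. The stage difference of the genotype effect did not pass for either (edgeR adjusted p 0.2376 for Btg2 and 0.3065 for Plk2).

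In Sesn2 the mutants moved and the controls did not detectably. It fell by 0.78 ± 0.12 in homozygous embryos (edgeR adjusted p 1.8e-04), and in heterozygous ones the difference was −0.11 ± 0.13 (edgeR adjusted p 0.555). Ddit4l fell in mutants by 0.75 ± 0.14 (edgeR adjusted p 5.2e-04) and had 0.32 ± 0.16 in controls (edgeR adjusted p 0.144). Gtse1 fell in mutants by 0.55 ± 0.08 (edgeR adjusted p 7.0e-05), to 51.1 ± 3.38 CPM, which overlapped the heterozygous E9.0 level of 48.7 ± 1.48 CPM (SD, n = 3 each).

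Zmat3 fell in both genotypes, by 0.37 ± 0.09 in controls (edgeR adjusted p 0.00529) and 0.57 ± 0.09 in mutants (edgeR adjusted p 1.7e-04). Each of these calls was lost in 1 of 19 alternatives. In controls that was total counts only, with a log2 difference of −0.0025 (edgeR adjusted p 0.989). Sesn1 rose in both, by 0.22 ± 0.08 (edgeR adjusted p 0.0474, kept in 1 of 6 fits without 1 library) and 0.31 ± 0.08 (edgeR adjusted p 0.00816). Ptprv fell in mutants by 1.24 ± 0.37 (edgeR adjusted p 0.0157), a call kept in 3 of 6 such fits, with −0.78 without homozygous E9.0 replicate 3.

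**Figure D3:**
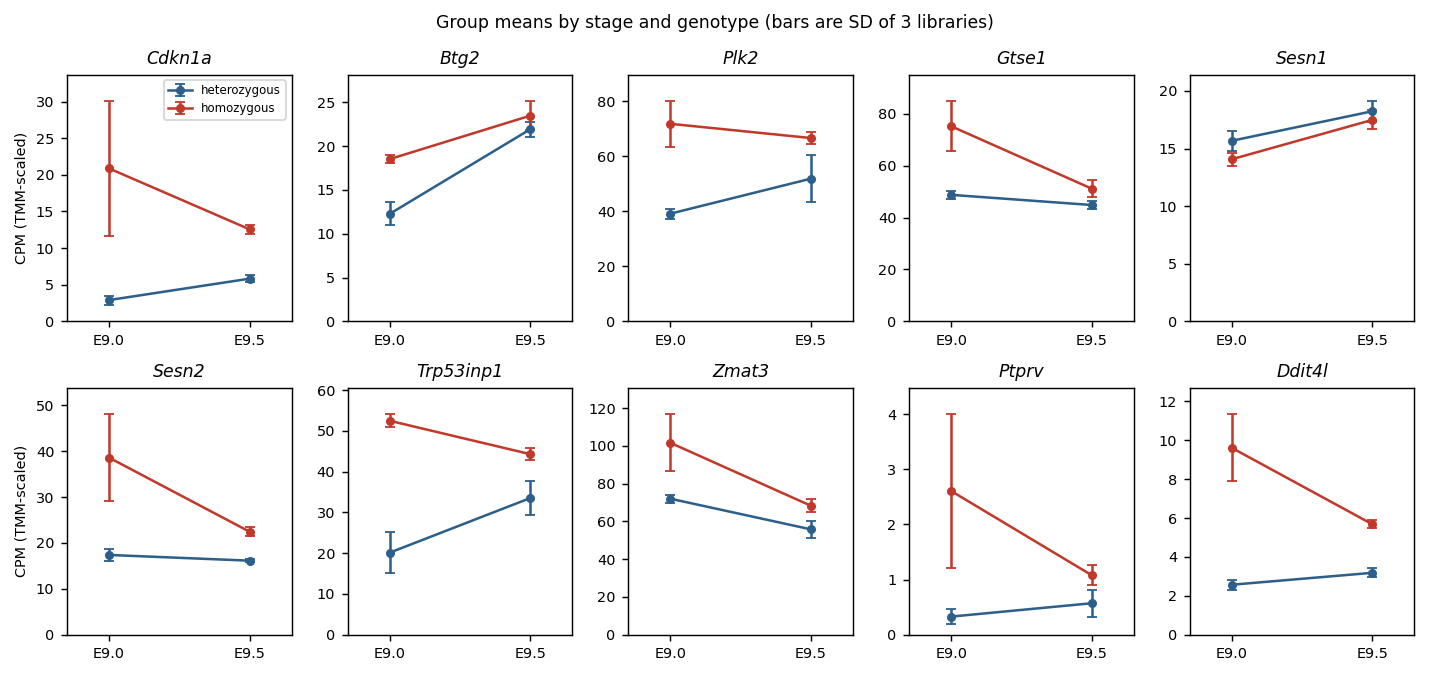
Group mean CPM (y axis, from 0, a separate scale per gene) at E9.0 and E9.5 (x axis) for heterozygous and homozygous embryos; bars are the SD of 3 libraries. The lines approach each other from E9.0 to E9.5 for Cdkn1a (from 2.92 and 20.9 to 5.83 and 12.6 CPM), and they run side by side for Sesn1.

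Other genes around p53 were set beside the 10, from lists chosen by function. Of 9 tested genes of a list of p53, its relatives and its regulators, 2 rose at E9.0, Ccng1, a cyclin of the p53 feedback loop (1.43 ± 0.11, edgeR adjusted p 9.2e-06), and Mdm2 (0.42 ± 0.06, edgeR adjusted p 0.00321), and Ccng1 rose at E9.5 (0.46 ± 0.10, edgeR adjusted p 0.0312). Trp53, the gene of p53 itself, was not called at either stage. The median of this list was 0.08 for the earlier stage and 0.03 for the later one, on the log2 scale. Of 11 cell death targets, 6 rose at the earlier and 2 at the later stage (medians 0.61 and 0.24). Those with the smallest adjusted p at E9.0 were Eda2r (1.99 ± 0.15, edgeR adjusted p 9.2e-06), the Akt inhibitor Phlda3 (2.41 ± 0.21, 8.4e-05), the BH3-only protein Pmaip1 (1.14 ± 0.16, 0.0017) and the death receptor Fas (2.98 ± 0.55, 0.0183). The Fas value rests on few counts, at 0 to 0.215 CPM in heterozygous and 0.526 to 1.35 CPM in homozygous E9.0 libraries. At E9.5 the 2 were Eda2r (0.81 ± 0.14, edgeR adjusted p 0.00704) and the death receptor Tnfrsf10b (0.62 ± 0.14, 0.0285).

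The other p53-linked lists were of repair, metabolism, arrest and stress. Of 12 tested targets of DNA repair and metabolism, edgeR and limma-voom called 1 at each stage, and DESeq2 called 3 at the earlier and 1 at the later stage (5 and 2 at an unadjusted p under 0.05). The gene called by edgeR was the adenylate kinase Ak1, which rose by 1.06 ± 0.11 at the earlier stage (edgeR adjusted p 6.3e-05) and by 0.51 ± 0.09 at the later one (0.00957), with list medians of 0.26 and 0.03. Of 10 tested other arrest and stress genes, edgeR and limma-voom called 0 at each stage and DESeq2 called 1 at each, with 2 at E9.0 and 6 at E9.5 at an unadjusted p under 0.05. Besides Ddit4, the smallest adjusted p values at E9.0 were those of Atf3 (0.45 ± 0.16, edgeR adjusted p 0.225), Rprm (0.28 ± 0.14, 0.424) and Gadd45a (0.27 ± 0.14, 0.424), a growth arrest gene often used to read p53 activity.

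Relatives of the 10 genes did not pass the test at E9.0. Of 18 tested, edgeR and limma-voom called 0 at E9.0 and DESeq2 called 1, with 3 at an unadjusted p under 0.05, and the median was −0.01. The kinase inhibitors nearest to Cdkn1a, Cdkn1c and Cdkn1b, had 0.21 ± 0.08 and −0.18 ± 0.09 (edgeR adjusted p 0.262 and 0.424). Trp53inp2 had −0.41 ± 0.15 (edgeR adjusted p 0.263), against 1.36 for Trp53inp1. At E9.5 Ptprb, a phosphatase of endothelial cells, rose by 0.73 ± 0.13 (edgeR adjusted p 0.00662), beside the endothelial markers given above; the part of those cells in it was not tested.

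Cell cycle genes and mTORC1 regulators, on which some of the 10 act, were examined next. Of 14 tested cyclins, cyclin-dependent kinases and INK4 inhibitors, 0 were called at either stage by edgeR, DESeq2 or limma-voom (0 at E9.0 and 1 at E9.5 at an unadjusted p under 0.05), with log2 fold changes between −0.13 and 0.10 at E9.0. The smallest adjusted p at E9.0 was that of Cdk2 (−0.10 ± 0.05, edgeR adjusted p 0.423). Of 13 tested mTORC1 regulators through which sestrins act, 0 were called at either stage by the same tools (1 at E9.0 and 0 at E9.5 unadjusted), with medians of −0.08 and −0.03. Depdc5, a subunit of GATOR1, had −0.24 ± 0.07 at E9.0 (edgeR adjusted p 0.175).

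ATF4, the transcription factor of amino acid and unfolded protein stress, can also induce Sesn2 and Ddit4. Of 14 tested ATF4 targets, 0 were called at either stage by edgeR, DESeq2 or limma-voom (0 at E9.0 and 2 at E9.5 unadjusted). Their median was −0.04 for the earlier and 0.06 for the later stage, on the log2 scale. The part of ATF4 in the Sesn2 values was not tested. Among them Atf5 had 0.20 ± 0.11, Phgdh 0.12 ± 0.08 and Chac1 −0.71 ± 0.47 at E9.0 (edgeR adjusted p 0.436, 0.525 and 0.535).

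**Figure D4:**
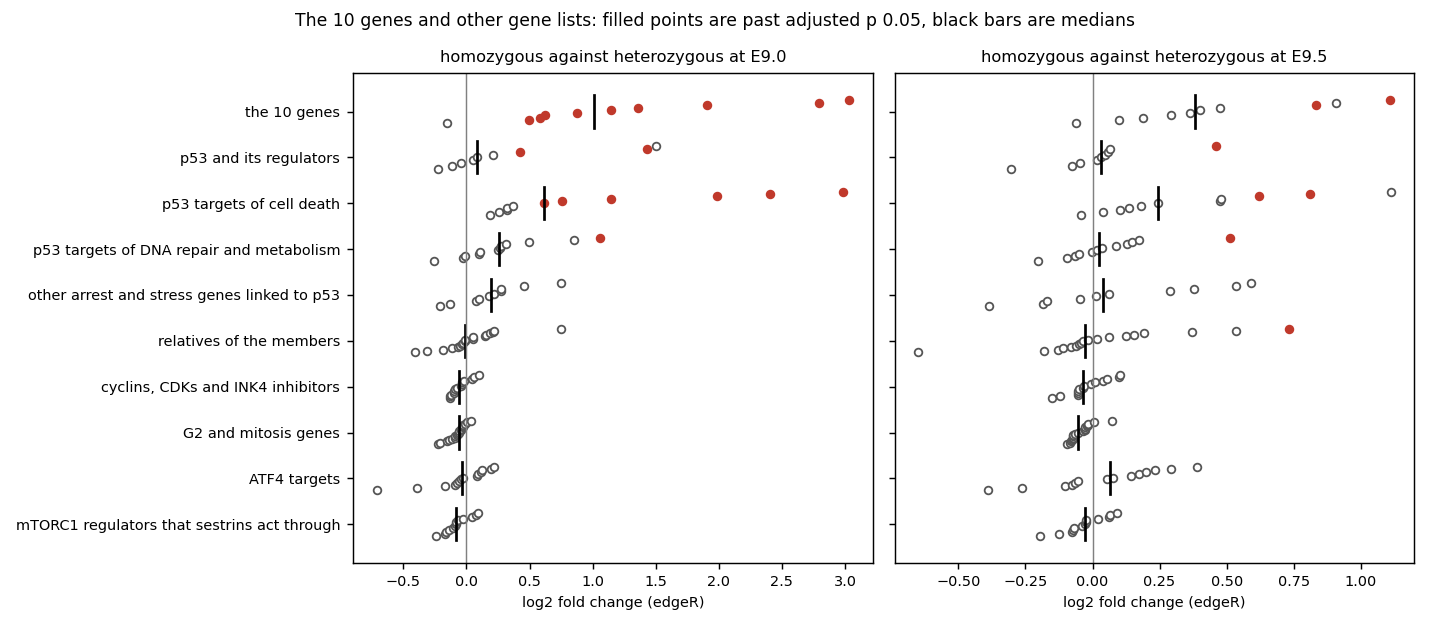
Log2 fold change of homozygous over heterozygous embryos (x axis) for each gene of the 10 lists (y axis) at E9.0 (left) and E9.5 (right, on its own scale); filled points passed an edgeR adjusted p of 0.05 and black bars are medians. The 10 genes (median 1.01) and the cell death targets (0.61) are shifted to the right at E9.0, and the lists of cyclins, mitosis, ATF4 and mTORC1 genes have medians from −0.08 to −0.04.

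The genes whose profile over the 12 libraries was most like that of Cdkn1a were found by the mean absolute difference of log2 CPM (prior count 2, each gene centred on its own mean) among 14273 genes with at least 10 counts on average. The measure depends on depth, since genes with few counts vary more. It also depends on the size of the changes, since profiles were centred but not scaled. A gene of the same pattern with smaller changes thus ranks lower. The nearest was Tap1, a peptide transporter of antigen presentation, at a mean difference of 0.247 on the log2 scale. Phlda3 (0.260), Fam212b (0.279), Eda2r (0.325) and Fas (0.354) followed, and then Shpk (0.358), Ddit4l (0.363), Svop (0.382), Ltb4r2 (0.385) and Zfp750 (0.386). Of the other members, Ptprv ranked 13th, Trp53inp1 17th, Sesn2 25th, Plk2 59th, Gtse1 244th, Zmat3 270th and Btg2 373rd. Sesn1 ranked 11246th at a difference of 1.01. Zmat3 and Gtse1 were near to each other, at 0.105.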

How the data were processed

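The authors deposited 1 table of raw read counts per gene for all 12 libraries (0 columns without a sample). Per the submitters' processing notes, cutadapt, STAR, featureCounts, MultiQC and mm10 were used; versions, annotation and strand setting are not given in the sources used here. The members and gene lists were chosen with earlier results of these data known.

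From the counts, filterByExpr kept 14810 genes (9611 left out, at most 0.0778% of any library's counts), libraries were TMM-scaled, and edgeR 4.0.16 (R 4.3.3) fitted 1 mean per group with robust quasi-likelihood F tests over all 12 libraries (common biological coefficient of variation 8.77%). P-values, two-sided, were adjusted by Benjamini-Hochberg over 14810 genes at 0.05. SE is the log2 fold change over the square root of F. The procedure was tested on simulated data, and no result of that test is reported here. No replicates agreed within sampling noise (reduced chi-square at least 10.8). Alternatives were RLE, upper-quartile and total-count scaling, total counts without Rn45s, DESeq2 1.42.0, limma-voom (limma 3.58.1), other filters, non-robust dispersion, a replicate block, GC and length offsets, only the groups compared, each library left out and a threshold of 0.01. Exons, lengths and overlaps came from GENCODE M21 (23376 symbols matched directly, 687 through a RefSeq synonym, 358 not). Full p53 sites were added after the data were seen. Named genes are the members, Eftud2, for each list at most 4 genes of smallest adjusted p per contrast, relatives of members, and the 10 profiles nearest to Cdkn1a. Outside this rule, Hba-a1 and Rn45s were named after their values were seen, and AC167363.2 and Gm10535 for overlapping a member.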

Additional observations from a re-analysis of the deposited data

How the results depend on the processing

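The count of members called at E9.0 (9) lay between 8 and 9 under every alternative run, including each library left out. At E9.5 (2 called) it was 4 with DESeq2, 5 with only the groups compared, 3 with the GC and length correction, 1 at an adjusted p under 0.01, and 1 to 2 with 1 library left out. The stage difference of the genotype effect (0 called) gave 2 with total counts only, 3 with DESeq2, 1 with the GC and length correction, and 0 to 1 with 1 library left out. Of all genes, these fits called 14, 74, 20 and 1 to 16, against 10 in the main fit. Total counts only also moved the E9.0 median from 1.01 to 1.197, while it moved the median of all genes to 0.19. It turned the sign of 5 values that were small and not called: Sesn1 at E9.0 (0.033) and in the stage difference (−0.10), Gtse1 and Sesn2 between stages in heterozygous (0.26 for each) and Plk2 between stages in homozygous embryos (0.068). With it the E9.0 calls of all genes were 96.2% higher, against 73.6% with TMM and 86.7% with total counts without Rn45s, and those of E9.5 47.1% higher, against 62.9%, with 123 genes called in place of 280. At E9.0, where TMM called 87 genes, DESeq2 called 203, the GC and length correction 190, a threshold of 0.01 34 and fits without 1 library 38 to 86. At E9.5 DESeq2 called 449 genes, a threshold of 0.01 81 (0.547% of all genes) and fits without 1 library 133 to 252. Only the groups compared gave 266 of 14695 genes there, and the GC and length correction gave 403. Over 994 alternative values of 50 member results, 918 kept direction and side of the threshold, 49 lost and 22 gained the call. The adjusted p of Ptprv was NA in DESeq2 at E9.0, and Ptprv was below a mean of 50 counts. Same-numbered E9.0 libraries had correlated deviations of 0.109, 0.0307 and 0.0297, and those of E9.5 of 0.0455, 0.0309 and 0.0689. Not every sample correlated best with its own number. With 3 libraries per group and correlations this small, the comparison cannot decide whether the numbers pair the samples. With the replicate block 8 members were called at E9.0, 2 at E9.5 and 0 in the stage difference. Of all genes that fit called 69, 248 and 9. Ptprv, with 4 to 7 counts in heterozygous E9.0 libraries, is limited by depth.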
